A study of Mus musculus with 6 samples.

Results

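The Sonic hedgehog pathway genes followed here were 9 of the 53746 genes in a count table from mouse cerebellum: the ligand Shh, the receptors and coreceptors Ptch1, Boc and Hhip, the transducers Smo and Sufu, and the transcription factors Gli1, Gli2 and Gli3. The 9 genes were chosen by symbol as components of the pathway, and they were selected with the fold changes of this same comparison in view. Their values are therefore given as a description. No p is given for them, and where they are counted against thresholds used across the genome, nothing is concluded from the count. The further pathway genes and the cell type lists were also chosen with earlier results of these data known. Their counts and p-values are therefore not independent tests. RNA was sequenced from the whole cerebellum of 6 mice at 2 months of age, 3 N153SLSL/LSLPcp2-cre mice (Pcp2-cre) and 3 N153SLSL/LSL mice (control), with mice 1 and 2 of each group male and mouse 3 female. All 6 mice carried, on both chromosomes, a Sting1 allele in which a floxed stop cassette lies ahead of the constitutively active N153S form, and the groups differed in the Cre transgene. The Pcp2 promoter drives Cre in Purkinje cells, so the allele is released in a cell type that is a small part of the tissue sequenced, and control mice without Cre do not show what Cre alone does. Total counts per mouse lay between 6733178 and 10178218.

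Hedgehog ligands act by binding Patched receptors, which in the absence of ligand hold the membrane protein Smoothened inactive. Once released, Smoothened acts at the primary cilium, where GLI factors escape the inhibitor SUFU and turn on targets that include Gli1, Ptch1 and Hhip, so that these genes are commonly used as readouts of the pathway. In the cerebellum, Purkinje cells are the main source of Shh. Granule cell precursors divide in response to it during postnatal growth, and in the adult its receiving cells include Bergmann glia, the radial astrocytes whose fibres run beside Purkinje dendrites.

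Sting1, the gene that carries the knockin, stood at 23.2, 27.2 and 26.2 CPM (counts scaled to a common library size) in control mice 1, 2 and 3 and at 44.4, 34.2 and 35.5 CPM in Pcp2-cre mice 1, 2 and 3, with no overlap between the groups. Microglia genes (6 listed) summed to 65.2, 60.9 and 65.9 CPM in the control mice and 146, 145 and 159 CPM in the Pcp2-cre mice, and their part in the level of Sting1 was not tested. The tissue label was checked against cell type markers. Purkinje cell genes (10 listed) summed to 6879, 6721 and 6316 CPM in the control mice and 3806, 3475 and 3679 CPM in the Pcp2-cre mice, and granule cell genes (7 listed) to 4769, 4609 and 4747 CPM and 4798, 4870.0 and 4972 CPM. In a bulk sample, fewer cells of a type and less RNA per cell cannot be told apart.

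The libraries differed in choroid plexus genes. The 7 listed summed to 798, 1230.5 and 32.4 CPM in control mice 1, 2 and 3 and to 24.1, 31.1 and 86.0 CPM in the Pcp2-cre mice. Ttr, which encodes transthyretin and was the most abundant of the list on average over the 6 mice, stood at 645, 1027 and 3.07 CPM in the control mice and 4.21, 6.81 and 61.4 CPM in the Pcp2-cre mice. Folr1 gave 65, 71 and 1 reads in this order for the control mice, against 0, 0 and 4 for the Pcp2-cre mice. Control mice 1 and 2 thus stood apart from the other 4 libraries in the sum and in these 2 genes. Clic6 gave 325, 349 and 111 reads in the control mice and 12, 22 and 18 in the Pcp2-cre mice, so that control mouse 3 was above every Pcp2-cre mouse too. In control mouse 3 and Pcp2-cre mice 1 and 2, Otx2 was above Ttr. Counts of pathway genes are also given without control mice 1 and 2.

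Of the 9 genes, Gli1 was the one past both thresholds used across the genome, adjusted p ≤ 0.05 together with an absolute log2 fold change ≥ 0.5, and it was lower in Pcp2-cre mice. Across all 16961 genes tested, 1.79% were called lower. At the same adjusted p with any fold change, Gli1 and Ptch1 made 2 of 9, where 4.75% of all genes were lower. In 3 of the 9, Shh, Ptch1 and Gli1, all 3 Pcp2-cre mice were lower than any control mouse, a pattern seen in 11.4% of all genes. Because the comparison was known when the genes were picked, nothing is read from these shares. All 9 passed the filter on low counts. The median log2 fold change of the 9 was -0.17, with a range from -0.60 to 0.02, and 7 of 9 were below 0. The median over all genes tested was 0.00.

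**Figure D1:**
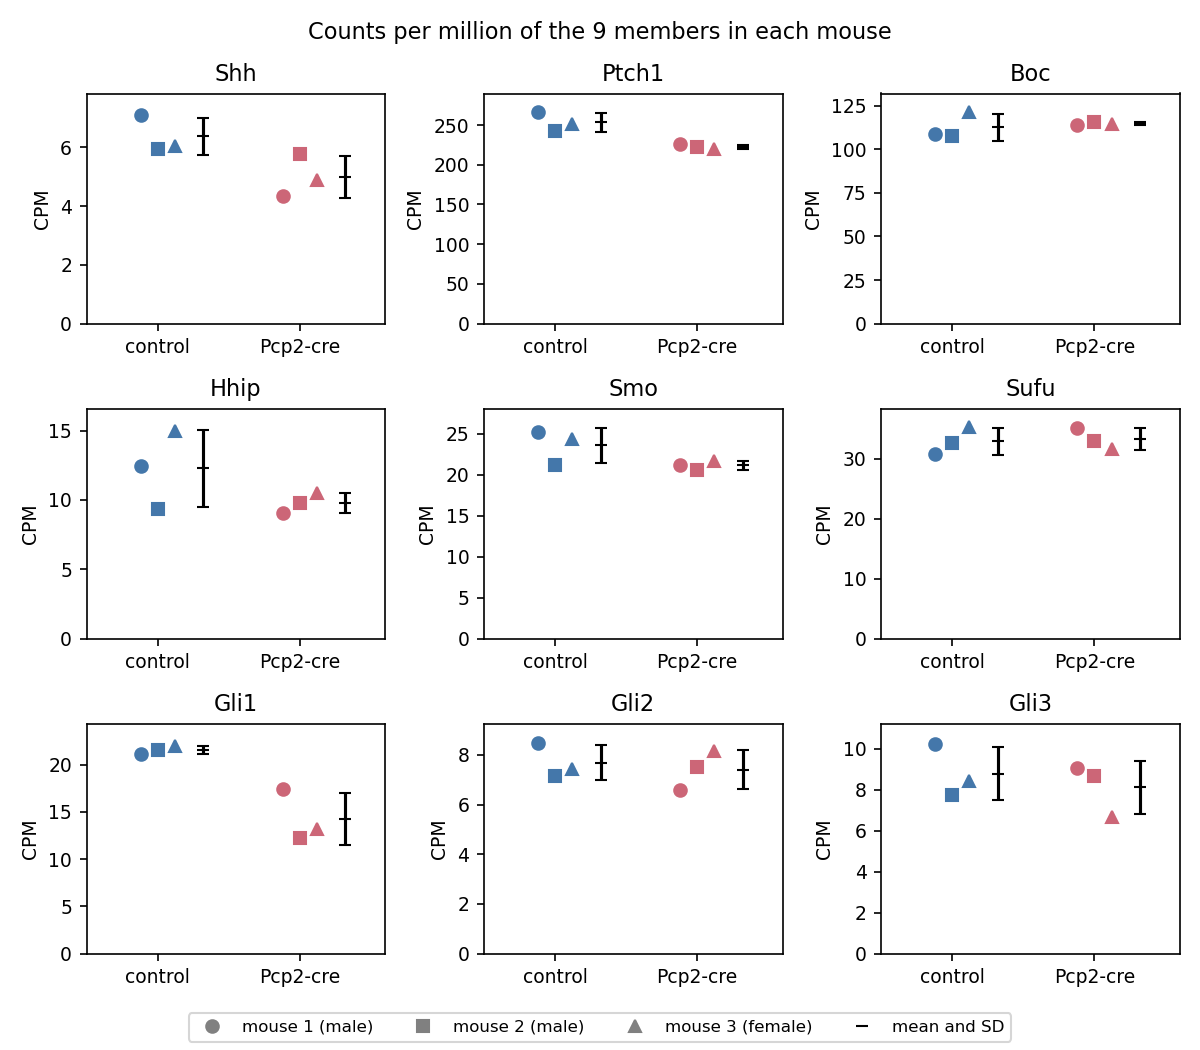
CPM (vertical axes starting at 0) of the 9 pathway genes in each of 3 control mice (blue) and 3 Pcp2-cre mice (red), with the mean and SD of each group in black. Shh, Ptch1 and Gli1 are the genes whose groups do not overlap, and Gli1 shows the widest gap between group means relative to its control spread.

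Shh, the secreted ligand, had the fewest reads of the 9 genes. Its reads numbered 57, 40 and 61 for control mice 1, 2 and 3, against 33, 50 and 33 for Pcp2-cre mice 1, 2 and 3, which came to 7.11, 5.96 and 6.04 CPM and 4.35, 5.77 and 4.88 CPM. The groups did not overlap, but Pcp2-cre mouse 2 was close to control mice 2 and 3. The log2 fold change was -0.34 with a standard error of 0.18, the widest error of the 9 genes. In the limma fits of log2(FPKM + 1) and log2(FPKM + 0.1) it was -0.22 and -0.34.

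Genes that mark Purkinje cells, the source of the ligand, were lower as a group. All 10 Purkinje genes were lower at an adjusted p of at most 0.05 by edgeR, and 7 of them also passed the fold threshold (Itpr1, Car8, Pcp4, Ppp1r17, Calb1, Skor2 and Foxp2). Itpr1, the calcium release channel and the most abundant of the list, changed by -0.98 on the log2 scale (adjusted p = 2.93e-13, lower in 3 of 3 Pcp2-cre mice), and the list's median was -0.75. With the control mean set to 0, the list averaged -0.58, -0.75 and -0.71 log2 CPM in Pcp2-cre mice 1, 2 and 3, and Shh lay at -0.53, -0.13 and -0.37. Shh minus the list was therefore 0.05, 0.61 and 0.34 in the Pcp2-cre mice, against 0.18, -0.13 and -0.05 in the control mice. Shh was less far below its control level than the list mean in all 3 Pcp2-cre mice, although Pcp2-cre mouse 1 fell within the control range of this difference. This does not hold against each gene of the list. The log2 fold changes of the 10 ran from -0.98 to -0.40, beside -0.34 for Shh with a standard error of 0.18. The part of Purkinje cell RNA in the level of Shh was not tested.

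Ptch1, the receptor that restrains Smoothened and is itself a GLI target, had the most. It stood at 266, 242 and 252 CPM in the control mice and 226, 222 and 220.4 CPM in the Pcp2-cre mice. The groups did not overlap, and the 3 Pcp2-cre mice lay within a few CPM of each other. The log2 fold change was -0.19 with a standard error of 0.04, short of the fold threshold. Between 1490 and 2542 counts per mouse were behind these values, so this small difference was measured with a much smaller error than that of Shh.

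The other genes at the cell surface did not separate the groups. Boc, a coreceptor that helps present ligand to Patched, stood at 109, 108 and 121 CPM in the control mice and 114, 116 and 115 CPM in the Pcp2-cre mice, a log2 fold change of 0.02 (standard error 0.05). Hhip, a membrane protein that binds and sequesters hedgehog ligand, stood at 12.5, 9.38 and 15.0 CPM and 9.09, 9.81 and 10.5 CPM. Control mouse 2 was low for Hhip and lay among the Pcp2-cre mice, while control mice 1 and 3 were above all of them. The log2 fold change of Hhip was -0.36 (standard error 0.15), and without control mouse 3 it was -0.18. In the limma fits of log2(FPKM + 1) and log2(FPKM + 0.1) it was -0.12 and -0.21. Without both control mice with high choroid plexus genes, which leaves control mouse 3 alone, it was -0.61 and Hhip was also counted past both thresholds, as it was with the choroid plexus genes as a covariate (-0.58).

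Neither transducer between receptor and transcription factor separated the groups. Smo, which encodes Smoothened, stood at 25.2, 21.1 and 24.4 CPM in the control mice and 21.2, 20.5 and 21.6 CPM in the Pcp2-cre mice, and control mouse 2 lay among the Pcp2-cre mice. Its log2 fold change was -0.17, close to that of Ptch1 (-0.19), with a standard error of 0.09 against 0.04 for Ptch1. The log2 fold change of Smo was smaller in the limma fits of FPKM, at -0.05 and -0.06. Sufu, which binds GLI proteins and holds them back, stood at 30.7, 32.6 and 35.3 CPM and 35.2, 32.9 and 31.7 CPM, with the groups fully interleaved. Its log2 fold change was 0.01 with a standard error of 0.08. Those of Boc and Sufu changed sign in 4 and 6 of 17 alternative settings.

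Among the GLI factors, the groups were apart for Gli1 and not for Gli2 or Gli3. Gli1, an activator whose transcription depends on the pathway, was covered by 169, 145 and 222 reads in control mice 1, 2 and 3 and by 132, 106 and 89 in Pcp2-cre mice 1, 2 and 3, which came to 21.1, 21.6 and 22.0 CPM and 17.4, 12.2 and 13.2 CPM. The control mice were close together, and Pcp2-cre mouse 1 lay between them and Pcp2-cre mice 2 and 3. The mean was 21.6 ± 0.457 (SD, n = 3) in control mice and 14.3 ± 2.74 (SD, n = 3) in Pcp2-cre mice, and the log2 fold change was -0.60 with a standard error of 0.12. Without Pcp2-cre mouse 2 it was -0.49 and fell short of the fold threshold, so 0 of the 9 genes passed. Over all 17 alternatives it lay between -0.77 and -0.49, and without both control mice with high choroid plexus genes it was -0.63.

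Gli2, the main activator at the start of the response, stood at 8.48, 7.15 and 7.43 CPM in the control mice and 6.59, 7.50 and 8.14 CPM in the Pcp2-cre mice. Gli3, which acts largely as a repressor, stood at 10.2, 7.74 and 8.42 CPM and 9.09, 8.66 and 6.66 CPM. The groups overlapped for both, with log2 fold changes of -0.06 (standard error 0.16) and -0.11 (standard error 0.16). Both changed sign in some alternatives, Gli2 in 3 of 17 and Gli3 in 2 of 17. Gli2 was at 0.01 without control mouse 1 and 0.02 without Pcp2-cre mouse 1. Gli3 was at 0.01 without control mouse 1 and 0.01 without Pcp2-cre mouse 3. Other alternatives moved them further below 0, Gli2 to -0.15 in males only and Gli3 to -0.23 in the limma fit of log2(FPKM + 0.1). The count of Gli1 reads divided by Gli3 reads was 2.06, 2.79 and 2.61 in the control mice and 1.91, 1.41 and 1.98 in the Pcp2-cre mice, with no overlap. Divided by Gli2 reads it was 2.49, 3.02 and 2.96 and 2.64, 1.63 and 1.62, where Pcp2-cre mouse 1 lay within the control range. These ratios compare each gene with itself between mice, since gene length was not taken out.

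By edgeR with genotype alone, Gli1 and Hhip had the largest fold changes of the 9 genes in size, although Hhip and Shh were within their errors of each other and Shh was the larger in some alternatives (in males only, -0.37 against -0.22). The genes with the most similar course over the 6 mice were listed for Gli1 and Hhip. For Gli1 these were Gm44898, Pde7b and Ccdc85a, whose log2 CPM, centred on each gene's mean, differed from that of Gli1 by a root mean square of 0.0530, 0.0641 and 0.0646. Their log2 fold changes were -0.55, -0.61 and -0.62. For Hhip they were Zcwpw2, Bach2 and Gm15522, with root mean squares of 0.0621, 0.0743 and 0.0756 and log2 fold changes of -0.30, -0.24 and -0.27.

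Levels were compared between genes on the deposited FPKM values, which are scaled for gene length. In control mice, Ptch1 was the most abundant, at 28.3 ± 0.765 FPKM (SD, n = 3), followed by Boc at 20.6 ± 0.571 and Sufu at 6.62 ± 0.468. Gli1, at 5.30 ± 0.458 FPKM, and Smo, at 4.82 ± 0.206, overlapped each other. Shh, at 1.84 ± 0.0715 FPKM, lay above Hhip, Gli2 and Gli3, which were near 1 FPKM and did not differ beyond their spread. In the Pcp2-cre mice the level of Gli1 was 3.66, 3.25 and 3.16 FPKM, below Smo in each of them at 4.67, 4.59 and 4.62. Shh stood at 1.81, 1.79 and 1.92 FPKM in the control mice and 1.58, 1.61 and 1.14 in the Pcp2-cre mice, and Ptch1 at 29.1, 28.1 and 27.6 and 25.1, 24.3 and 22.7. On this scale too, Shh, Ptch1 and Gli1 were the 3 of 9 whose groups did not overlap.

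**Figure D2:**
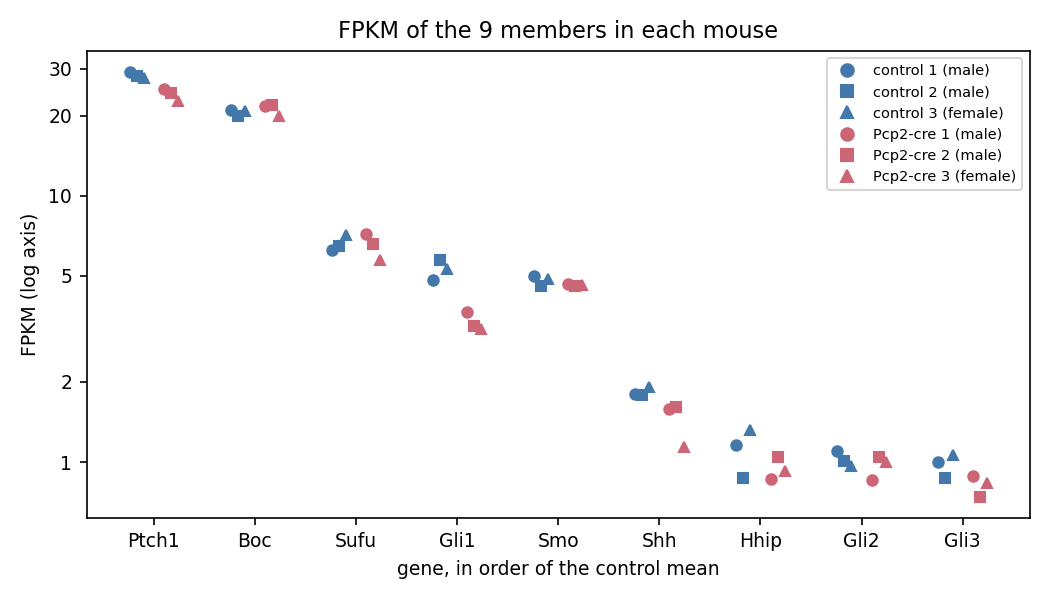
FPKM (log axis) of the 9 pathway genes in each control mouse (blue) and Pcp2-cre mouse (red), ordered by the control mean. Levels run from near 30 FPKM for Ptch1 to near 1 FPKM for Hhip, Gli2 and Gli3, and Gli1 is level with Smo in control mice and below it in Pcp2-cre mice.

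By the Gencode annotation of GRCm39, Gli1 (ENSMUSG00000025407) lies on chromosome 10 from 127165751 to 127177865 on the reverse strand, Ptch1 (ENSMUSG00000021466) on chromosome 13 from 63656142 to 63721412 on the reverse strand, and Shh (ENSMUSG00000002633) on chromosome 5 from 28661813 to 28672254 on the reverse strand. The exons of Ptch1 and Sufu overlap those of no other gene. Smo shares 365 bases with Gm13717 on the same strand. Counts of Gm13717 were 1, 1 and 2 in the control mice and 0, 1 and 0 in the Pcp2-cre mice. On the other strand, Gli3 shares 513 bases with Gm6556, Hhip 355 with 2 genes, Boc 99 with Gm30064 and Gli2 14 with Gm70540. Of the 2847 exonic bases of Shh, 642 overlap an antisense gene, 9530036O11Rik, with counts of 12, 9 and 12 in the control mice and 10, 14 and 9 in the Pcp2-cre mice. Of the 5017 exonic bases of Gli1, 103 overlap Arhgap9 and 265 overlap Gm47200, both on the other strand. Counts of Arhgap9 were 3, 9 and 2 in the control mice and 14, 12 and 4 in the Pcp2-cre mice, and those of Gm47200 were 18, 30 and 31 and 18, 13 and 12. The use of strand in counting is not given in the sources used here, so reads from such stretches cannot be told apart.

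Beyond the 9 genes, 42 further genes of the pathway and its known targets were listed by role, and 37 passed the filter on low counts. Of these, 1 was called lower, Sfrp1, and 0 higher by edgeR's quasi-likelihood test, beside 1.79% and 1.37% of all genes. At an unadjusted p under 0.05, 7 were lower and 1 was higher, beside 1640 and 1418 of the 16961 genes tested. At both thresholds DESeq2 also called 1 lower and 0 higher, while the limma fits of FPKM called 0. Sfrp1 lost its call in 6 of 17 alternatives, described below. At an adjusted p of at most 0.05 with any fold change, 4 were lower and 1 was higher, beside 4.75% and 2.99% of all genes. In 8 of the 37, all 3 Pcp2-cre mice were lower than any control mouse and in 1 all 3 were higher, beside 11.4% and 10.8% of all genes. The median log2 fold change of the 37 was -0.01. Because this list was chosen with earlier results of these data known, nothing is read from its shares.

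Among the further receptors and coreceptors, Gas1, a coreceptor, stood at 22.3, 20.3 and 20.2 CPM in the control mice and 18.6, 16.9 and 15.7 CPM in the Pcp2-cre mice (log2 fold change -0.29, adjusted p = 0.0805), and Cdon, which is related to Boc, had a log2 fold change of 0.07 (adjusted p = 0.740). Lrp2 was too low to test, with at most 6 counts in any mouse.

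Sfrp1, a secreted Wnt antagonist that GLI factors can induce, stood at 10.4, 10.9 and 4.85 CPM in control mice 1, 2 and 3 and 4.08, 3.81 and 3.55 CPM in Pcp2-cre mice 1, 2 and 3. Control mice 1 and 2 were high and control mouse 3 was close to the Pcp2-cre mice, as they were for the sum of choroid plexus genes above. It fell by 1.14 on the log2 scale (standard error 0.25, edgeR adjusted p = 0.00508, lower in 3 of 3 mice). Without control mice 1 and 2 the log2 fold change was -0.35 (adjusted p = 0.663), and with the choroid plexus genes as a covariate it was -0.44 (adjusted p = 0.475). Without control mouse 1 it was -0.98 (adjusted p = 0.0532) and without Pcp2-cre mouse 2 it was -1.14 (adjusted p = 0.0546). In these the call was lost with a fold change near that of all 6 mice. The limma fits of log2(FPKM + 1) and log2(FPKM + 0.1) also lost the call. The log2 fold changes there were -0.54 and -0.94 (limma adjusted p = 0.181 and 0.183). The adjusted p ranged from 4.9e-07 to 0.663 over all alternatives.

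Of the other target genes, Ccnd1, which encodes cyclin D1 and drives entry into the cell cycle, stood at 41.5, 43.8 and 42.6 CPM in the control mice and 54.3, 51.2 and 55.0 CPM in the Pcp2-cre mice. It rose, with a log2 fold change of 0.33 (edgeR adjusted p = 0.00167, higher in 3 of 3 mice), below the fold threshold. Its direction was opposite to that of Gli1 and Ptch1. The sum of the listed microglia genes was higher as well, and the part of any cell type in the level of Ccnd1 was not tested. Mycn and Ccnd2, targets in dividing granule precursors, had log2 fold changes of -0.09 (adjusted p = 0.901) and -0.13 (adjusted p = 0.746), and Bcl2, Foxm1 and Igf2 had -0.05, 0.07 and 0.47 (adjusted p = 0.849, 0.952 and 0.279). Atoh1, which marks granule cell precursors, had 0 counts in all 6 mice, where a floor of 3 counts corresponds to 0.297 to 0.447 CPM.

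Genes that act between ligand and target were not past the test. The 13 genes of the cilium and Smoothened transduction (Kif7, Stk36, Gpr161, Grk2, Evc, Evc2, Iqce, Efcab7, Tulp3, Arl13b, Ift88, Kif3a and Dync2h1) had log2 fold changes from -0.12 (Ift88) to 0.46 (Kif7, which encodes a ciliary kinesin, adjusted p = 0.297). The 7 genes of GLI processing (Prkaca, Prkacb, Gsk3b, Csnk1a1, Btrc, Spop and Cul3), the kinases and ubiquitin ligase parts that set how much GLI protein is cut or degraded, lay between -0.13 (Gsk3b, adjusted p = 0.0982) and 0.04 (Csnk1a1). Among genes for making and releasing ligand, Hhat, Disp1, Scube1 and Scube3 had log2 fold changes of 0.31, 0.23, 0.20 and -0.36 (adjusted p = 0.746, 0.646, 0.669 and 0.647). The other hedgehog ligands were too low to test. Dhh had at most 1 count in any mouse and Ihh at most 5, and Scube2 had at most 10.

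Genes of Bergmann glia that handle glutamate and potassium, known to respond to Shh from Purkinje cells, made up 3 of the 4 genes that were lower at any fold change. Slc1a3, the glutamate transporter GLAST, stood at 1111, 1092 and 1063 CPM in the control mice and 942, 925 and 936 CPM in the Pcp2-cre mice, and fell by 0.22 on the log2 scale (edgeR adjusted p = 9.95e-05, lower in 3 of 3 mice). Gria1, an AMPA receptor subunit, stood at 562, 559.7 and 551 CPM and 479, 481 and 451 CPM, and fell by 0.25 (edgeR adjusted p = 1.39e-04, lower in 3 of 3 mice). Kcnj10, the potassium channel Kir4.1, stood at 226, 228 and 223 CPM and 197, 200.3 and 206 CPM, and fell by 0.17 (edgeR adjusted p = 0.0115, lower in 3 of 3 mice). Gria4, the other AMPA receptor subunit of these cells, had a log2 fold change of -0.01 (adjusted p = 0.916). All of these genes are also expressed in other cells of the cerebellum. In the limma fits of FPKM neither Ccnd1 nor any of these 3 kept an adjusted p of at most 0.05, while their fold changes stayed close to those by edgeR, at 0.25 and 0.27 for Ccnd1, -0.23 and -0.23 for Gria1, -0.23 and -0.23 for Slc1a3 and -0.15 and -0.16 for Kcnj10. The adjusted p of Kcnj10 was above 0.05 in 8 of 17 alternatives.

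**Figure D3:**
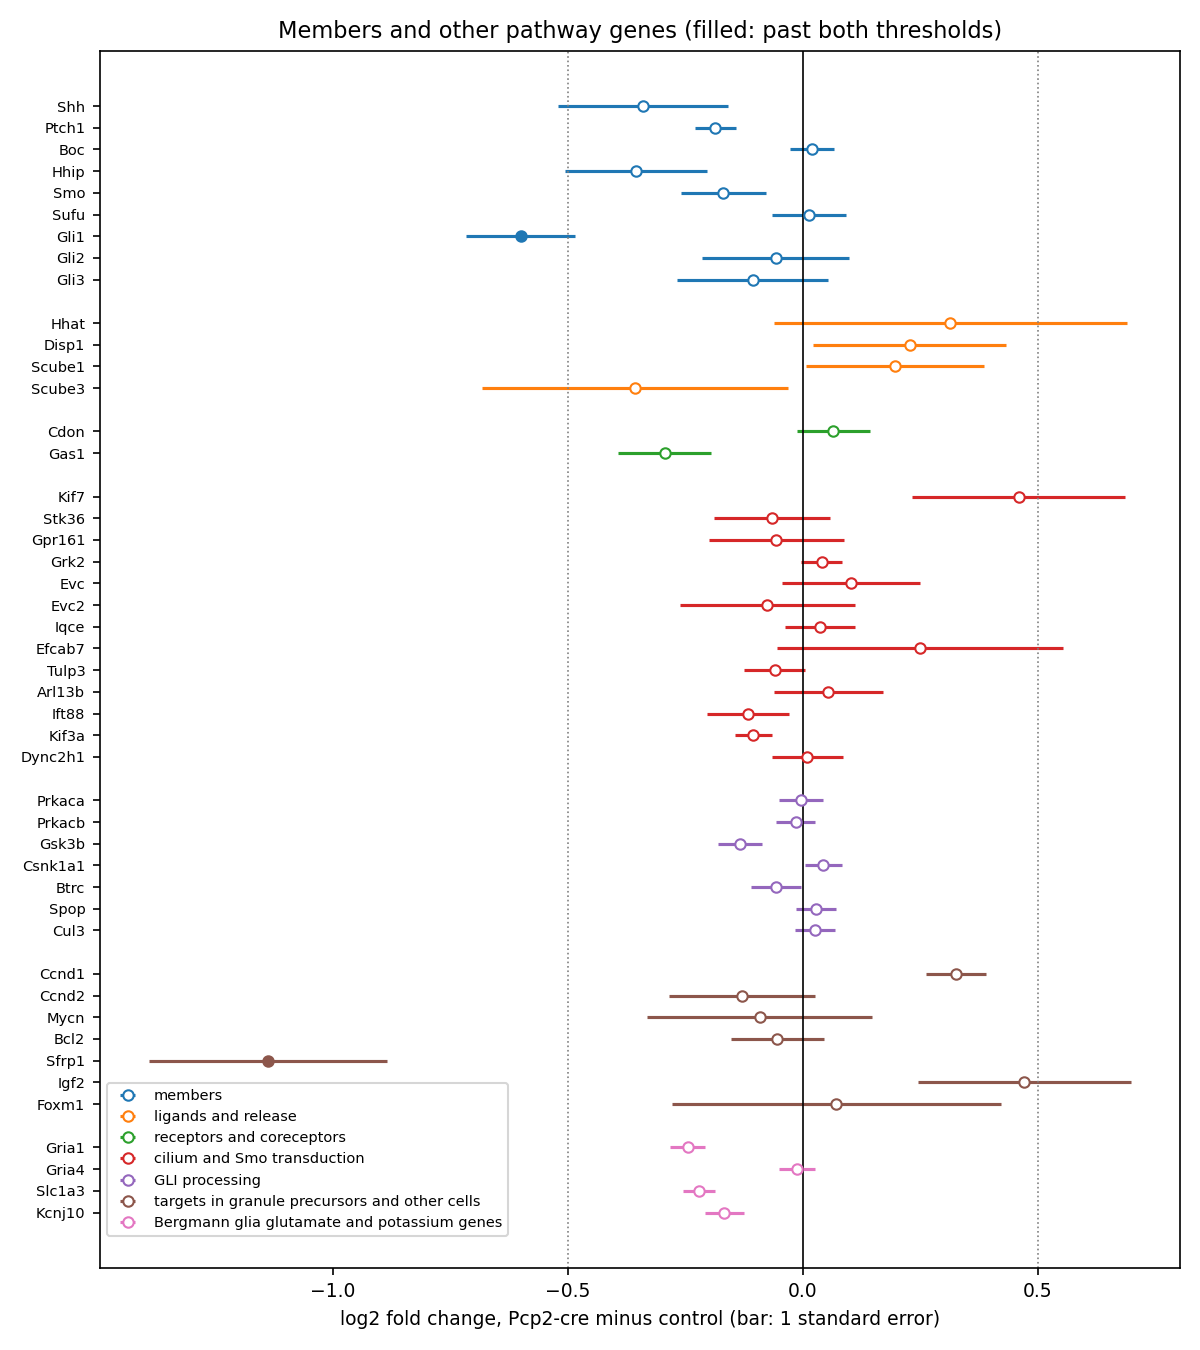
Log2 fold change (Pcp2-cre minus control, n = 3 mice per group) of the 9 pathway genes and the 37 further genes tested, grouped by role, with bars of 1 standard error. Filled points passed both thresholds, and dotted lines mark a log2 fold change of 0.5 in either direction. Gli1 and Sfrp1 are the filled points, both on the lower side.

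Markers of Bergmann glia did not move as one. Of 9 Bergmann glia genes, Gdf10 and Slc1a3 were lower and Aqp4 was higher at an adjusted p of at most 0.05, Aqp4 with a log2 fold change of 0.51 (edgeR adjusted p = 2.37e-07, higher in 3 of 3 mice). The list summed to 3903, 3906 and 3818 CPM in the control mice and 3941, 3976 and 3965 CPM in the Pcp2-cre mice, with Sparcl1 the most abundant (log2 fold change 0.10, adjusted p = 0.0512). Relative to the mean of this list, Gli1 was -0.37, -0.85 and -0.80 on the log2 scale in Pcp2-cre mice 1, 2 and 3, against -0.04, -0.02 and 0.06 in the control mice. Ptch1 was -0.23, -0.23 and -0.29 against 0.06, -0.09 and 0.03. These differences lay below the control range in all 3 Pcp2-cre mice. Those of Gli2 and Hhip did so in Pcp2-cre mouse 1 and not in mice 2 and 3, at -0.28, -0.07 and -0.01 and -0.46, -0.34 and -0.29 in the Pcp2-cre mice against 0.13, -0.13 and -0.01 and 0.04, -0.38 and 0.34 in the control mice. That of Gli3 did so in Pcp2-cre mouse 3 alone, at 0.00, -0.06 and -0.48 against 0.22, -0.20 and -0.02. The list holds Slc1a3, which is also one of the pathway genes above. The differences from the list mean depend on the genes listed. Their log2 fold changes ran from -0.25 (Gdf10) to 0.51 (Aqp4), with 4 of 9 below 0. Gdf10 and Slc1a3 (-0.22) were lower by at least as much as Ptch1 (-0.19), while Gli1 (-0.60) was below all 9.

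Of 7 reactive astrocyte genes, 6 were tested and 5 were called higher: Serpina3n, C4b, Gfap, Osmr and Cd44. Gfap, the most abundant over the 6 mice, stood at 113, 129.8 and 121 CPM in the control mice and 429, 462 and 499 CPM in the Pcp2-cre mice (log2 fold change 1.94, edgeR adjusted p = 4.43e-15). In the control mice Vim was above it, at 147, 152 and 149.5 CPM. The list summed to 288, 312 and 303 CPM and 725, 768 and 789 CPM. Lcn2 had at most 4 counts in any mouse. Of the choroid plexus genes, 5 of 7 were tested and 4 were called lower (Ttr, Clic6, Kl and Slc4a5), and the list's sum in each mouse is given above. The part of glial and choroid plexus RNA in the levels of the pathway genes was not tested.

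Other cell types were followed by shorter lists. Microglia genes were called higher in 4 of 6, and summed from 60.9 to 65.9 CPM in the control mice and from 145 to 159 CPM in the Pcp2-cre mice, with Csf1r the most abundant (log2 fold change 0.96). Oligodendrocyte genes were higher at any fold change in 4 of 6, led in abundance by Mbp (log2 fold change 0.25), and summed from 3548 to 3763 CPM in the control mice and from 4154 to 4366 CPM in the Pcp2-cre mice. Among 3 oligodendrocyte precursor genes, Gpr17 was the most abundant and was called higher (log2 fold change 0.61), and the list summed from 64.2 to 69.1 CPM in the control mice and from 81.8 to 85.9 CPM in the Pcp2-cre mice. In the lists below no gene was called by edgeR. Granule cell genes, led by Cbln3 (log2 fold change 0.01), had 1 of 7 higher at any fold change, Neurod1, and molecular layer interneuron genes, led by Gad1 (log2 fold change -0.17), had 1 of 6 lower at any fold change, Gad1. Molecular layer interneuron genes summed from 928 to 963 CPM in the control mice and from 860.0 to 898 CPM in the Pcp2-cre mice. Endothelial genes (4 tested, led by Flt1) summed from 142 to 149 CPM in the control mice and from 152 to 159 CPM in the Pcp2-cre mice, and mural cell genes (4 tested, led by Rgs5) summed from 132 to 145 CPM in the control mice and from 134 to 139 CPM in the Pcp2-cre mice. Meningeal fibroblast genes (5 tested, led by Col1a2) summed from 116 to 119 CPM in the control mice and from 109 to 138 CPM in the Pcp2-cre mice, and ependymal genes (2 of 3 tested, led by Foxj1) summed from 9.61 to 11.5 CPM in the control mice and from 10.5 to 13.5 CPM in the Pcp2-cre mice.

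**Figure D4:**
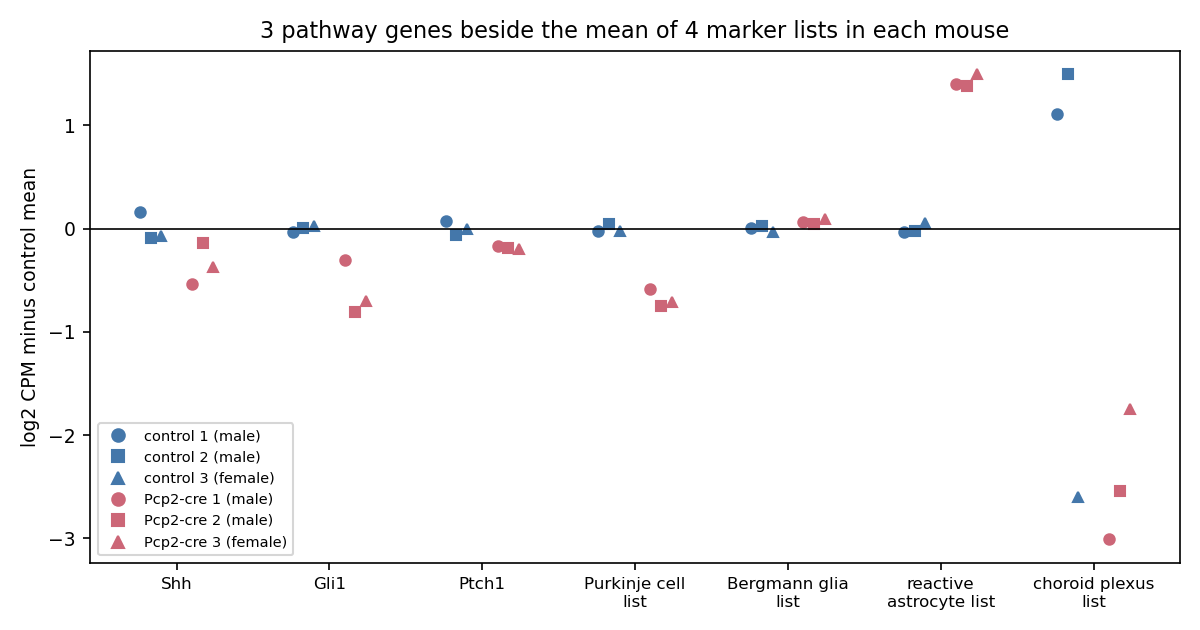
Log2 CPM minus the control mean of Shh, Gli1 and Ptch1 (left) and the mean of the tested genes of 4 marker lists (right) in each control mouse (blue) and Pcp2-cre mouse (red). The Purkinje cell list lies at -0.58, -0.75 and -0.71 in Pcp2-cre mice 1, 2 and 3, the Bergmann glia list near 0 in all 6 mice, and the choroid plexus list is high in control mice 1 and 2.

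The window of 300 bases around the start of each gene was searched for the sequence that GLI factors prefer, GACCACCCA, on both strands in RefSeq promoters of GRCm38.p6. Of 32851 windows, 83 (0.253%) held it. The promoter table held 6 of the 9 pathway genes, Ptch1, Hhip, Smo, Sufu, Gli2 and Gli3, and these 9 letters stood in the window of 0 of the 6. With a sequence this rare, 0 of 6 does not set these genes apart from other windows. Shh, Boc and Gli1 were not in the promoter table and so were not searched.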

How the data were processed

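Poly A-enriched RNA from whole cerebellum of 3 control and 3 Pcp2-cre mice was sequenced, each mouse giving 1 library. The authors aligned paired reads to GRCm39 with STAR and counted genes of the Gencode annotation. They deposited raw counts and, separately, FPKM values. Tool versions, the Gencode release and the use of strand are not given in the sources used here.

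The counts were fitted with edgeR 4.0.16 under R 4.3.3, using TMM scaling, the quasi-likelihood test and genotype as the one factor. filterByExpr kept 16961 of 53746 genes. Genes were called at an adjusted p (Benjamini-Hochberg) ≤ 0.05 with an absolute log2 fold change ≥ 0.5. CPM values are TMM-scaled. Standard errors came from the fold change and the F statistic. p-values measure the spread between mice. Floors and counts cover counting error only. The procedure was tested on simulated data with the same dispersion for every gene and no outlying libraries. That test does not cover outliers such as the choroid plexus genes here. Alternatives used DESeq2 1.42.0 and limma 3.58.1 (FPKM plus 1 or 0.1, log2).

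The members and lists were chosen with earlier results of these data known. Named genes are all 9 members, the pathway genes by role, the most abundant gene of each cell type list, those past the threshold in the Purkinje cell, Bergmann glia, reactive astrocyte and choroid plexus lists, and, for the 2 members with the largest fold change, the 3 tested genes of at least 1 CPM closest in log2 CPM. Others (Sting1, Gdf10, Neurod1, Lcn2, Vim, Folr1, Otx2 and the overlapping genes) were named after their values were seen. Some genes of the pathway and Purkinje cell lists are not reported here, and the list counts leave them out.

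No pair of libraries within a group matched to within counting error (chi-square per gene 1.37 to 3.17). Same-numbered mice deviated from their group means together (correlation across genes 0.233, 0.259 and 0.490 for numbers 1, 2 and 3), and so did the males of different number (0.295 and 0.216). Deviations within a group sum to 0, so a pattern shared by both mice numbered 3 would by itself raise the correlations among the males. Among mice 1 and 2, same-numbered pairs did not stand out from pairs of different number. For mouse 3, the one female of each group, number and sex cannot be told apart. The fit with a replicate block is an alternative.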

Additional observations from a re-analysis of the deposited data

How the results depend on the processing

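With a replicate block, 1 of the 9 genes, 1 of the 37 further pathway genes and 548 of all genes were called, against 1, 1 and 537 without it, so the paired fit changed none of these calls (Gli1 and Sfrp1). At an adjusted p of at most 0.05 with any fold change, the counts were 2, 5 and 1312. With the choroid plexus genes as a covariate, 2 of the 9 genes, 0 further pathway genes and 423 of all genes were called. Without both control mice with high choroid plexus genes, a setting chosen after seeing the data that leaves 1 control mouse and assumes it varies like the Pcp2-cre mice, the counts were 2, 0 and 435. DESeq2 called 1 further pathway gene, as edgeR did, and 369 of all genes. The limma fits of log2(FPKM + 1) and log2(FPKM + 0.1) called 0 and 0 further pathway genes and 281 and 311 of all genes. In these fits the log2 fold change of Sfrp1 was -0.54 and -0.94, against -1.14 by edgeR. Leaving out each mouse in turn gave 0 to 1 of the 9 genes, 0 to 1 further pathway genes and 426 to 632 of all genes. The cause of these changes was not tested, beyond the fewer mice in some fits. The log2 fold changes of Shh, Ptch1, Smo, Gli1 and Hhip stayed below 0 in all 17 alternatives run. In the limma fits, that of Smo was -0.05 and -0.06, against -0.17 by edgeR, that of Hhip -0.12 and -0.21, against -0.36, and that of Shh -0.22 and -0.34, against -0.34. Those of Gli2, Gli3, Boc and Sufu changed sign in 3, 2, 4 and 6 of the 17. Shh had 33 to 61 counts per mouse, the fewest of the 9 genes.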
